A study of Mus musculus with 8 samples.

Results

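Mouse bone marrow-derived macrophages were profiled by RNA sequencing, and 55 genes that act in G2 and mitosis were taken from the table of 24940 genes by symbol. A gene was kept when it reached at least 1 RPKM (tags per kilobase of exon, scaled to the tags of the library) in at least 2 of the 8 libraries, and all 55 listed genes passed. The filter kept 11040 genes in all. Of the 55 genes, 52 reached 1 RPKM in every library, while Cdc25c, Ttk and Cenpf fell below it in some. Cdc25c had both libraries at 1 RPKM or more in only 1 group, NCsh with RANKL, and met the filter only through that group. The gene levels ran between 0.458 and 37.9 RPKM, and each value rested on 24 to 9816 tags.

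The macrophages came from C57BL/6 mice of 6 to 8 weeks and were grown in 30 ng/ml of M-CSF, which keeps this lineage alive and dividing. They carried a short hairpin RNA labelled TMBIM6sh, which targets a calcium-handling protein of the endoplasmic reticulum, or a hairpin labelled NCsh, a name the labels do not spell out. RANKL, the cytokine that turns these precursors into osteoclasts, was either absent or present for 24 h at 100 ng/ml. The 4 groups of 2 libraries were TMBIM6sh with RANKL, TMBIM6sh without RANKL, NCsh with RANKL and NCsh without RANKL. The same treatment text stands on all samples, so the groups were taken from the sample titles. With 1 hairpin named on each side, effects of losing Tmbim6 and side effects of either hairpin cannot be told apart. The labels do not say how the hairpins were delivered or whether the libraries came from separate animals or cultures, so the p-values measure only the spread between these libraries.

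Cells prepare for division in G2 and divide in mitosis. CDK1 with cyclin A or B starts the process, Polo-like and Aurora kinases build the spindle and couple chromosomes to it, and the spindle checkpoint holds back the anaphase-promoting complex (APC/C) until every kinetochore is attached. The genes are transcribed together late in the cycle through the MuvB complex with B-MYB (Mybl2) and FOXM1, and are held down in resting cells by the DREAM complex. Fusing osteoclast precursors are known to leave the cell cycle, whereas M-CSF keeps their progenitors dividing.

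Promoters of the group were read for the elements that bind its regulators. Windows of 300 bases, 250 before to 50 after each transcript start, came from RefSeq (GRCm38.p6) and matched 45 of the 55 genes by symbol; Ccna2, Cdc25c, Foxm1, Aurkb, Incenp, Spc24, Kif20a, Tpx2, Dlgap5 and Smc4 were not matched. The searched motifs were the cell cycle homology region or CHR (TTTGAA or TTTAAA), which MuvB binds, the CCAAT box (CCAAT), which NF-Y binds, and an E2F site (TTTGGCGC or TTTCGCGC), each on both strands; in these windows 1 pair of matches of different motifs shared a base. A CHR stood in 35 of 45 windows (77.78%), beside 18.95% of the windows of tested genes and 27.82% of all 27025 windows. The CCAAT box stood in 31 (68.89%), beside 39.26% of tested genes and 37.92% of all windows, and both together in 28 (62.22%), beside 7.731% and 10.91%. The E2F site stood in 2, Cdk1 and Ncapd2 (4.444%), beside 1.749% and 0.8326%. Of the 30 windows of DNA replication genes, 8 held a CHR, 18 a CCAAT box and 8 an E2F site. A match is a run of letters and not a shown binding site. Only these letters were searched, so a window without a match may hold another form of an element.

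The 150 bases before the transcript start are printed 5′ to 3′ for 8 genes, with CHR, CCAAT and E2F matches in capitals. They are Cdk1 (chr10:69352913-69353062, minus strand), Ccnb1 (chr13:100786487-100786636, minus strand), Plk1 (chr7:122159285-122159434, plus strand), Cdc20 (chr4:118437344-118437493, minus strand), Ube2c (chr2:164769779-164769928, plus strand), Top2a (chr11:99024190-99024339, minus strand), Cenpa (chr5:30666736-30666885, plus strand) and Mybl2 (chr2:163054485-163054634, plus strand), the last of which holds none of the 3 motifs in its window.
Cdk1: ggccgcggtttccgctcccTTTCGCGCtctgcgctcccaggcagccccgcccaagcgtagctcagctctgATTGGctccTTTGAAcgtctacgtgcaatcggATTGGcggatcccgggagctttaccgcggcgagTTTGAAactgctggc
Ccnb1: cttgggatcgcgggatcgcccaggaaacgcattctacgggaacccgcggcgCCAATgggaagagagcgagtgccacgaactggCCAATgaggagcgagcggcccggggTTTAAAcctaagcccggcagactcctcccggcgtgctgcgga
Plk1: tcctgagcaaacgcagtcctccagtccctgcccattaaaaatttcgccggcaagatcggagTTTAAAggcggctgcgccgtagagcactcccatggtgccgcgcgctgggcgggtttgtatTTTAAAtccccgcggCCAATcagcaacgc
Cdc20: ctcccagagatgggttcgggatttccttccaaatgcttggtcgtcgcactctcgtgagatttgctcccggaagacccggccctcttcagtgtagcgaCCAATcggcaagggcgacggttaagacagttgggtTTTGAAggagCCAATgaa
Ube2c: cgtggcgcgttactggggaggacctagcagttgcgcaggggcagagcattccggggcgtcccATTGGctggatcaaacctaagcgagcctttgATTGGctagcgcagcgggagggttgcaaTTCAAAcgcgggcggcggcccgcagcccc
Top2a: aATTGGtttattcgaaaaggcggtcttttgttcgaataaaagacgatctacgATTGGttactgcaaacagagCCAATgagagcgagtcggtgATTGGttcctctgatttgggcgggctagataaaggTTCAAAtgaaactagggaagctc
Cenpa: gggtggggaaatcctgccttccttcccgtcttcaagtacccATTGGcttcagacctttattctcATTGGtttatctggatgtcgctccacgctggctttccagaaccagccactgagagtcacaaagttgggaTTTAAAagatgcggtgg
Mybl2: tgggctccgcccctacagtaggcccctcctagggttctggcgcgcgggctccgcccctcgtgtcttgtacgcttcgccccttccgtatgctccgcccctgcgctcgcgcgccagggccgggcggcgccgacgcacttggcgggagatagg

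The CHR matches had a median first base of -15 and the CCAAT matches of -67, counting the first transcribed base as 1, and 36 of the 51 CHR matches began at -50 or later, in 30 genes. Of these 36, 24 began at or after the first transcribed base, which the printed stretches do not reach, and 12 at -50 to -1. Of the CCAAT matches, 66 of 69 began before the first transcribed base. In 27 genes a CCAAT box lay upstream of the CHR nearest to the start, at a median distance of 33 bases (9 to 153), and in 19 of them at 20 to 50 bases. Plk1 was not among the 27, since its only CCAAT match began at -14, after the CHR nearest to its start at -29. Genes with no CHR were Nuf2, Nek2, Nusap1, Ncaph, Bub1, Cdc25b, Mybl2, Melk, Mad2l1 and Pttg1. The start used for the window was the start of the measured gene entry for 41 genes. It differed for 4, Ect2, Kif2c, Pttg1 and Kif11. The 35 genes with a CHR had median log2 differences of 0.69 for RANKL in TMBIM6sh libraries and 0.70 in NCsh libraries, beside 0.74 and 0.68 for the 10 without, and of -0.70 for the hairpin with RANKL and -0.70 without RANKL, beside -0.57 and -0.61. The ranges of the 2 sets overlapped in all 4 comparisons.

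**Figure D1:**
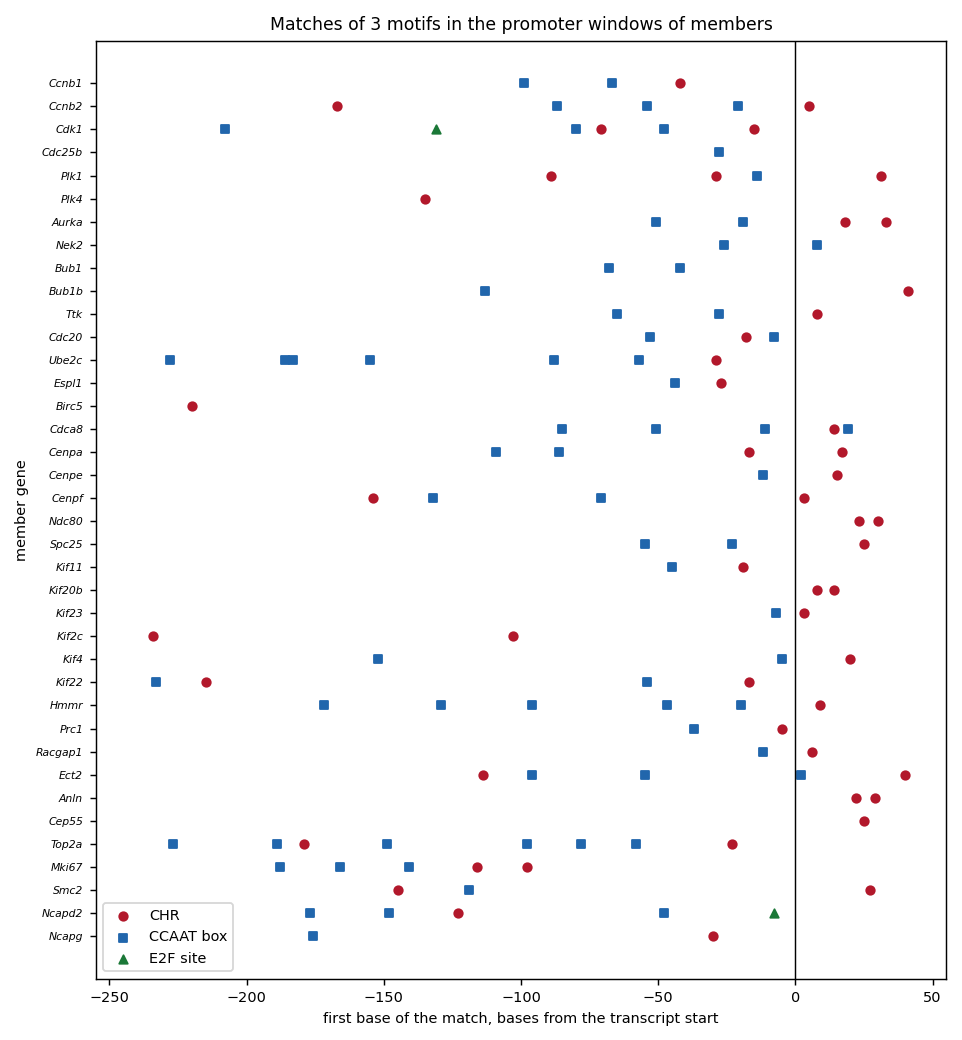
Each row is a gene with at least 1 match, and symbols give the first base of each CHR, CCAAT box and E2F match relative to the transcript start (0, horizontal axis in bases). Most red CHR symbols lie within 50 bases of the start on either side of it, and nearly all blue CCAAT boxes lie before it.

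The libraries held 25475500 to 28595000 tags. The level of Tmbim6 itself was 10.0 and 10.5 RPKM in TMBIM6sh libraries with RANKL and 11.1 and 11.7 RPKM in those without, against 308.9 and 320.9 RPKM in NCsh libraries with RANKL and 330.0 and 333.7 RPKM in those without, so the hairpin labels fit the targeted gene. All 9 macrophage markers were present, with a summed level of 7551 to 8173 RPKM in TMBIM6sh libraries with RANKL and 8692 to 8696 RPKM in those without, against 9263 to 9341 RPKM in NCsh libraries with RANKL and 9486 to 10898 RPKM in those without. The summed level of 8 lymphocyte markers was at most 0.168 RPKM and that of 9 erythroid, mast cell and basophil markers at most 0.121 RPKM in any library. The 9 stromal cell markers summed to 5.98 to 6.99 RPKM and the 7 dendritic cell markers to 7.59 to 10.8 RPKM. None of the 4 stromal markers that could be tested passed in any comparison. The 1 dendritic marker that could be tested was lower with RANKL in TMBIM6sh libraries and with the hairpin with RANKL. The 9 neutrophil markers summed to 16.2 to 21.3 RPKM in TMBIM6sh libraries and 26.8 to 34.8 RPKM in NCsh libraries, nearly all of it S100a8 and Csf3r, with Ly6g and Retnlg at 0. Of 7 progenitor markers Cd34 alone could be tested, and it was lower in TMBIM6sh libraries in both RANKL states. The 10 osteoclast markers summed to 140.1 to 151.6 RPKM in TMBIM6sh libraries with RANKL and 91.3 to 91.5 RPKM in those without, against 105.4 to 115.1 RPKM in NCsh libraries with RANKL and 93.5 to 99.5 RPKM in those without. Of the 5 that could be tested, Mmp9 was higher and Atp6v0d2 lower in all 4 comparisons, with RANKL in each hairpin and with the hairpin in each RANKL state, and Acp5, Dcstamp and Nfatc1 did not pass. Mmp9 was at 69.4 and 73.3 RPKM in TMBIM6sh libraries with RANKL and 22.2 and 21.6 RPKM in those without, against 29.7 and 30.6 RPKM in NCsh libraries with RANKL and 12.7 and 12.7 RPKM in those without, while the defining markers Ctsk, Calcr and Oscar were below 0.1 RPKM in every library. The part of these markers in the differences below was not tested. In RNA from whole cultures, fewer dividing cells and less mitotic RNA per cell cannot be told apart.

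The 55 genes shared their highest and their lowest group. Their summed level was 385 and 394 RPKM in TMBIM6sh libraries with RANKL and 218 and 215 RPKM in TMBIM6sh libraries without it. It was 637 and 650 RPKM in NCsh libraries with RANKL and 370 and 385 RPKM in NCsh libraries without it. All 55 genes had their highest mean in NCsh libraries with RANKL, and in all 55 both of these libraries lay above the 6 others, as in 19.2% of all tested genes. Cdc25c met the filter only through that group, so its place there is not independent of the filter. All 55 had their lowest mean in TMBIM6sh libraries without RANKL, and in 53 both of those libraries lay below the 6 others, as in 12.6% of all tested genes. The exceptions were Cdc25c and Ttk, both among the least abundant genes. These genes were thus higher with RANKL and lower with the TMBIM6 hairpin.

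**Figure D2:**
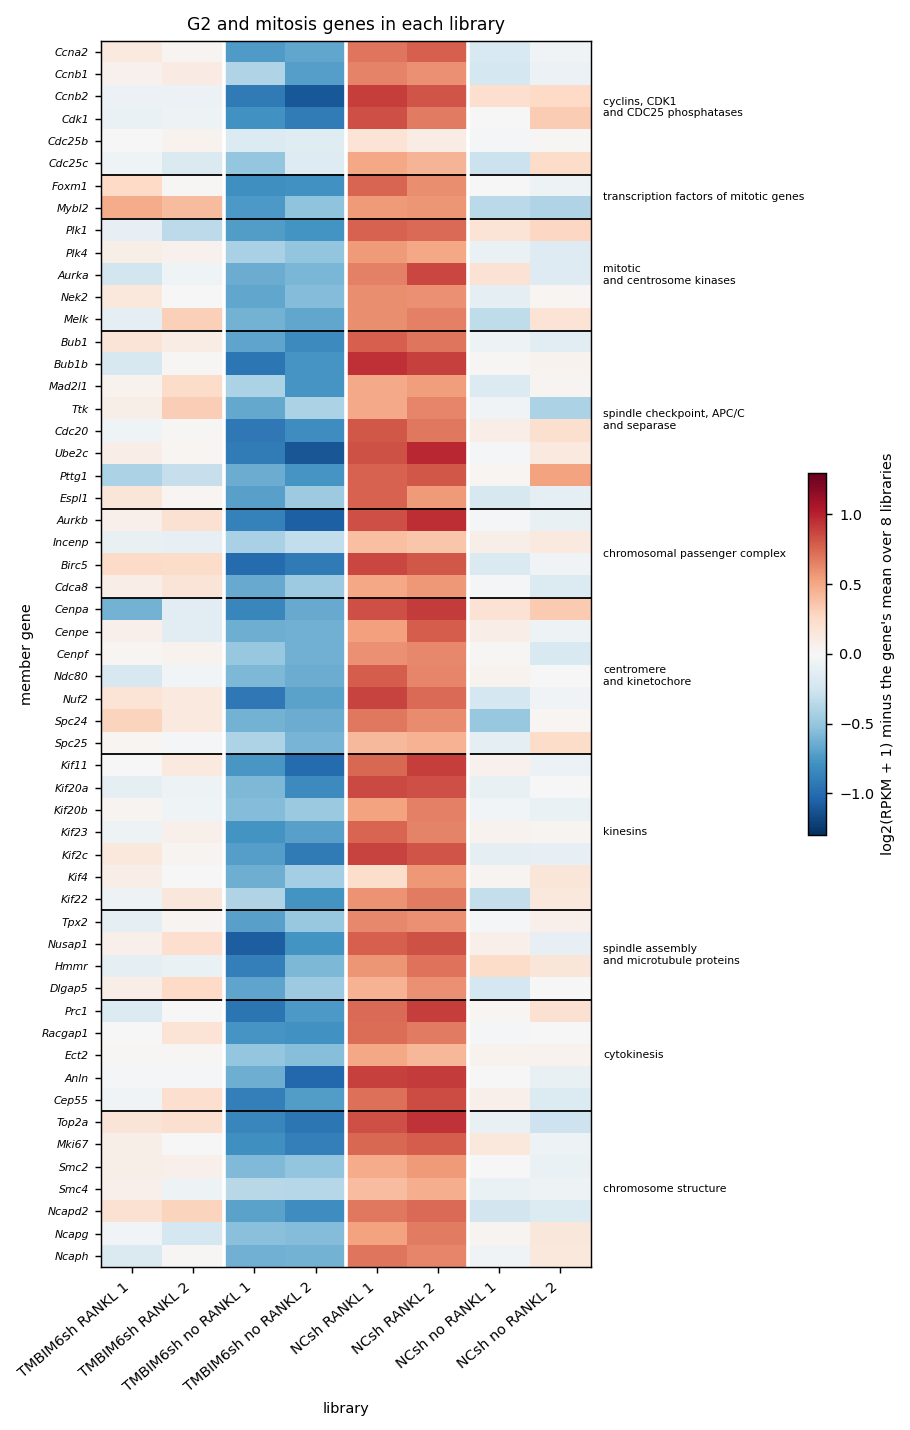
Each row is 1 of the 55 genes, grouped by role, and each column 1 of the 8 libraries; colour gives log2(RPKM + 1) minus the mean of that gene over the 8 libraries. The pair of NCsh columns with RANKL is the reddest and the pair of TMBIM6sh columns without RANKL the bluest, and the other 4 columns lie between them.

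Differences were tested with limma on log2(RPKM + 1) across the 11040 genes, with Benjamini-Hochberg adjustment and a threshold of 0.05. In TMBIM6sh libraries, RANKL raised 51 of the 55 genes and lowered 0, against a background of 8.53% of all tested genes higher and 6.89% lower. In NCsh libraries, it likewise raised 51 and lowered 0, against 11% higher and 3.98% lower. The median log2 difference of the 55 genes was 0.73 in TMBIM6sh libraries and 0.70 in NCsh libraries, beside 0.02 and 0.06 over all tested genes. In ratios of mean RPKM, the median was 1.86 in TMBIM6sh libraries, with a range of 1.17 to 2.63, and 1.74 in NCsh libraries, with a range of 1.12 to 2.25. The genes that did not pass were Cdc25b, Cdc25c, Pttg1 and Cenpa in TMBIM6sh libraries and Cdc25b, Cdc25c, Spc25 and Kif4 in NCsh libraries, and 49 genes passed in both.

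The TMBIM6 hairpin went with lower levels in both RANKL states. With RANKL, 50 of the 55 genes were lower and 0 higher in TMBIM6sh than in NCsh libraries, against 19.7% of all tested genes lower and 8.93% higher. Without RANKL, 49 were lower and 0 higher, against 13.8% lower and 10.4% higher. The median log2 difference was -0.65 with RANKL and -0.64 without, beside -0.07 and -0.02 over all tested genes. The ratio of mean RPKM had a median of 0.593 with RANKL, between 0.369 and 0.909, and 0.553 without RANKL, between 0.346 and 0.870. Cdc25b, Mybl2, Ttk, Spc24 and Kif4 did not pass with RANKL, nor did Cdc25b, Cdc25c, Mybl2, Ttk, Spc24 and Kif22 without it. In both states 48 genes passed, and 45 passed in all 4 comparisons. The 50 lower with RANKL include Cdc25c, which met the filter only through NCsh libraries with RANKL.

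These backgrounds depend on the scaling. When libraries were rescaled by the median ratio, 800 genes (7.25%) were higher and 836 (7.57%) lower with RANKL in NCsh libraries, and 1580 (14.3%) were higher and 1680 (15.2%) lower with the hairpin under RANKL. Under that scaling, 51 of the 55 genes rose with RANKL in TMBIM6sh libraries and 48 in NCsh libraries, while 46 were lower with the hairpin with RANKL and 49 without.

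**Figure D3:**
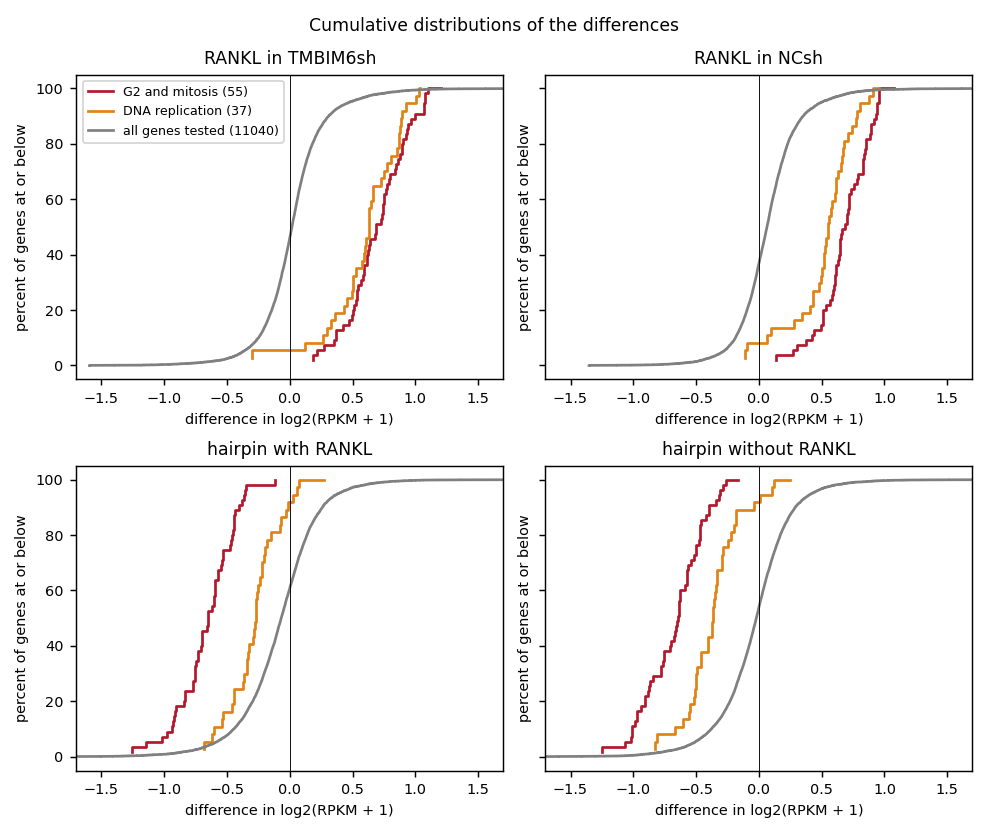
Each panel gives, for 1 comparison, the percent of genes (vertical axis) at or below a difference in log2(RPKM + 1) (horizontal axis) for the 55 G2 and mitosis genes, the 37 DNA replication genes and the 11040 genes tested. The curve of the 55 genes lies wholly right of 0 for RANKL and wholly left of 0 for the hairpin, and the replication curve lies between it and all genes in the hairpin panels.

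The size of the change differed among the genes. Across the 55 genes the RANKL difference in TMBIM6sh libraries followed that in NCsh libraries, with r = 0.77 (Pearson) and rho = 0.756 (Spearman). The hairpin difference with RANKL followed that without RANKL, with r = 0.786 and rho = 0.815. In each pair the 2 differences share no library, but all 55 points share the 8 libraries and the level of each gene, so these values are a description.

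No gene of the 55 passed the test of whether RANKL acted differently in the 2 hairpins, against a background of 0.00906% (1 of 11040 genes). The RANKL difference in TMBIM6sh libraries minus that in NCsh libraries had a median of 0.03 over the 55 genes, 30 above 0 and 25 below, with standard errors of 0.0874 to 0.268. The 2 smallest unadjusted p-values, the only ones below 0.05, belonged to Ccnb2 and Birc5, with limma adjusted p-values of 0.624 and 0.633. Ccnb2 had a difference of 0.32 (95% interval 0.04 to 0.59) and Birc5 of 0.25 (95% interval 0.01 to 0.48). For Top2a the difference was 0.01, with a 95% interval of -0.24 to 0.25, and for Plk1 it was 0.00, with an interval of -0.30 to 0.30, so the intervals leave room for differences of that size in either direction.

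**Figure D4:**
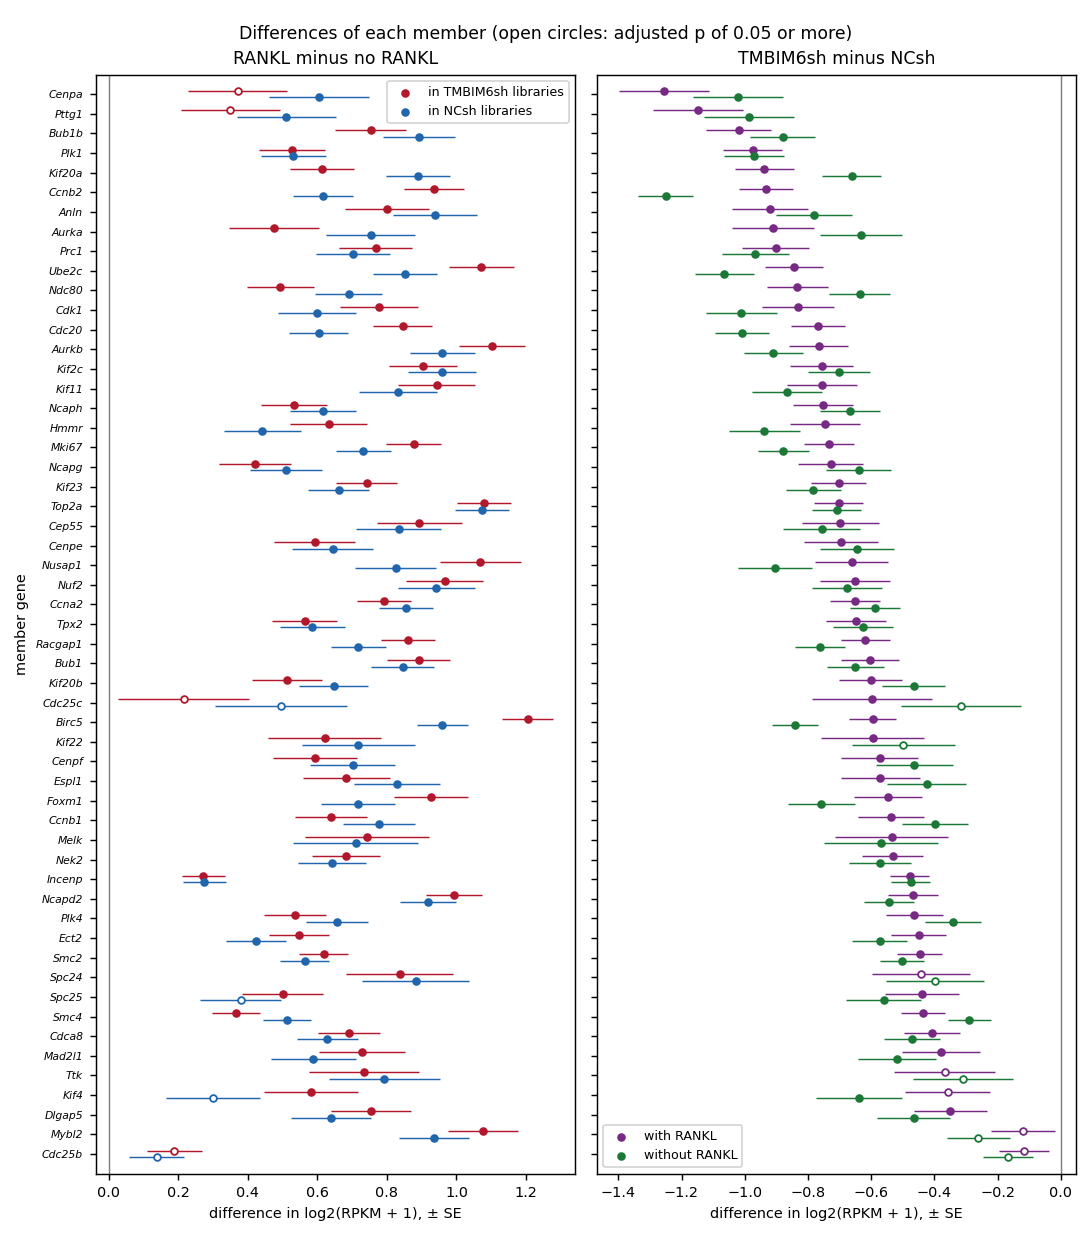
For each of the 55 genes (vertical axis), points give the difference in log2(RPKM + 1) with bars of 1 SE, for RANKL minus no RANKL (left) and TMBIM6sh minus NCsh (right), and open points did not pass an adjusted p of 0.05. All points of the RANKL panel are positive and all those of the TMBIM6sh minus NCsh panel are negative, with Cdc25b nearest to 0 in both hairpin comparisons.

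Among the cyclins, their kinase and its activating phosphatases, 4 of 6 rose with RANKL in each hairpin, and 5 with RANKL and 4 without were lower with the TMBIM6 hairpin. Ccnb2, a cyclin that drives mitotic entry with CDK1, was at 6 and 5.99 RPKM in TMBIM6sh libraries with RANKL and 2.9 and 2.43 RPKM in those without, against 12.7 and 12 RPKM in NCsh libraries with RANKL and 7.58 and 7.83 RPKM in those without. The groups did not overlap, and the TMBIM6sh libraries with RANKL lay below the NCsh libraries without it. The log2 difference of Ccnb2 between hairpins was -1.25 ± 0.0865 (SE, limma adjusted p = 2.50e-05) without RANKL, the largest fall of the 55 genes in that comparison, and -0.93 ± 0.0865 (SE, limma adjusted p = 7.90e-05) with RANKL. Cdk1 itself had 7.39 and 7.51 RPKM in TMBIM6sh libraries with RANKL and 4.15 and 3.73 RPKM in those without, against 14.9 and 13.2 RPKM in NCsh libraries with RANKL and 7.84 and 10.2 RPKM in those without. Its level was lower in every TMBIM6sh library than in any NCsh library. Ccnb1, the other B-type cyclin, passed in all 4 comparisons, with a ratio of 0.672 between hairpins with RANKL and 0.739 without. Ccna2, the cyclin of S and G2 phase, had 12.7 and 11.8 RPKM in TMBIM6sh libraries with RANKL and 6.5 and 6.83 RPKM in those without, against 19.3 and 20.4 RPKM in NCsh libraries with RANKL and 9.92 and 11.1 RPKM in those without. RANKL raised it by 0.79 ± 0.0783 (SE, limma adjusted p = 1.85e-04) in TMBIM6sh libraries and by 0.85 ± 0.0783 (SE, limma adjusted p = 2.18e-04) in NCsh libraries. Over all annotated transcripts, the exons of Ccna2 share 12.5% of their bases with Exosc9 on the other strand. Exosc9 was at up to 21.4 RPKM. The counting took both strands, so tags in shared bases cannot be told apart.

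The phosphatases that activate CDK1 passed in the fewest comparisons. Cdc25b, which acts early in this step, was at 5.42 and 5.63 RPKM in TMBIM6sh libraries with RANKL and 4.7 and 4.76 RPKM in those without, against 6.27 and 5.89 RPKM in NCsh libraries with RANKL and 5.37 and 5.51 RPKM in those without. Its 4 differences lay between -0.17 and 0.19, and none passed. Cdc25c, the most scarce of the 55 genes, was at 0.989 and 0.813 RPKM in TMBIM6sh libraries with RANKL and 0.458 and 0.837 RPKM in those without, against 1.94 and 1.82 RPKM in NCsh libraries with RANKL and 0.706 and 1.44 RPKM in those without, and its libraries without RANKL differed between replicates by more than its libraries with RANKL. It passed only with the hairpin under RANKL, by -0.60 ± 0.19 (SE, limma adjusted p = 0.0408), and 12.7% of its exonic bases are shared with Gm3550. Without its NCsh libraries with RANKL, Cdc25c would not have met the filter. That group is part of this comparison, so the call is not independent of the filter.

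**Figure D5:**
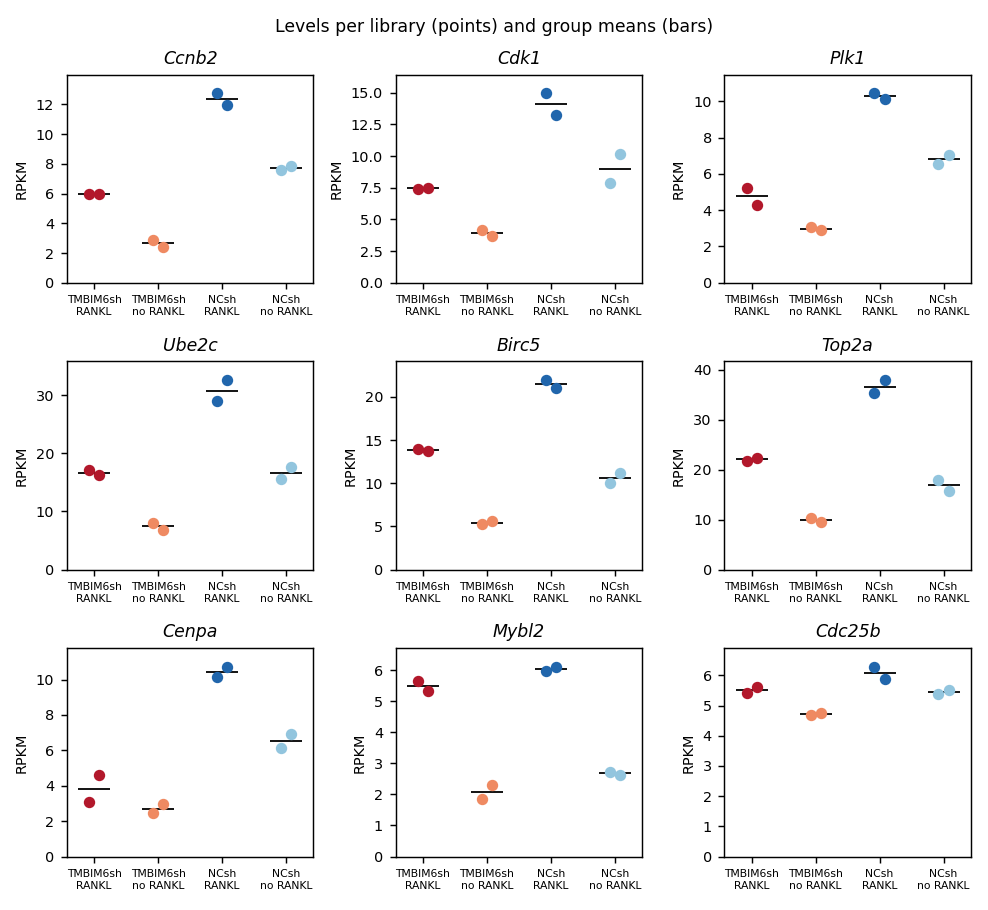
Points give the RPKM of each library and bars the mean of its group for 9 genes, with TMBIM6sh groups left of NCsh groups and RANKL left of no RANKL; each axis starts at 0. Ccnb2, Cdk1, Plk1 and Cenpa with RANKL in TMBIM6sh libraries stay below NCsh libraries without RANKL, while Mybl2 with RANKL was at 5.63 and 5.31 RPKM in TMBIM6sh libraries, against 5.97 and 6.09 RPKM in NCsh libraries, and no difference of Cdc25b passed the test.

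Of the 2 transcription factors, Foxm1 passed in all 4 comparisons and Mybl2 for RANKL alone, and the difference between them was not tested. Foxm1, an activator of mitotic genes, was at 5.21 and 4.23 RPKM in TMBIM6sh libraries with RANKL and 1.98 and 2.01 RPKM in those without, against 7.78 and 6.9 RPKM in NCsh libraries with RANKL and 4.19 and 3.95 RPKM in those without. It rose with RANKL by 0.93 ± 0.106 (SE, limma adjusted p = 3.84e-04) in TMBIM6sh libraries and was lower with the hairpin in both states. Mybl2, which joins MuvB to switch on mitotic promoters, was at 5.63 and 5.31 RPKM in TMBIM6sh libraries with RANKL and 1.84 and 2.31 RPKM in those without, against 5.97 and 6.09 RPKM in NCsh libraries with RANKL and 2.73 and 2.63 RPKM in those without. It had the largest RANKL ratio of the 55 genes in both hairpins, 2.63 in TMBIM6sh and 2.25 in NCsh libraries, with log2 differences of 1.08 ± 0.1 (SE, limma adjusted p = 1.29e-04) and 0.93 ± 0.1 (SE, limma adjusted p = 4.59e-04). Its hairpin differences, -0.12 ± 0.1 (SE, limma adjusted p = 0.403) with RANKL and -0.26 ± 0.1 (SE, limma adjusted p = 0.0881) without, did not pass. Foxm1 and Mybl2 both had their RANKL libraries apart from their libraries without RANKL in each hairpin.

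All 5 mitotic and centrosome kinases rose with RANKL in both hairpins and were lower with the hairpin in both states. Plk1, which drives centrosome maturation and mitotic exit, was at 5.21 and 4.3 RPKM in TMBIM6sh libraries with RANKL and 3.05 and 2.91 RPKM in those without, against 10.4 and 10.1 RPKM in NCsh libraries with RANKL and 6.57 and 7.05 RPKM in those without. The hairpin differences of Plk1 were -0.97 ± 0.0943 (SE, limma adjusted p = 1.02e-04) with RANKL and -0.97 ± 0.0943 (SE, limma adjusted p = 1.21e-04) without, and its TMBIM6sh libraries all lay below its NCsh libraries. Aurka, the Aurora kinase of the spindle poles, had 4.43 and 5.17 RPKM in TMBIM6sh libraries with RANKL and 3.1 and 3.23 RPKM in those without, against 9.14 and 10.7 RPKM in NCsh libraries with RANKL and 6.31 and 4.7 RPKM in those without. Plk4, which starts centriole copying, and Nek2, which splits centrosomes, had hairpin ratios of 0.68 and 0.646 with RANKL. Melk, a kinase of dividing cells, was the least certain, with limma adjusted p-values of 0.0498 and 0.0448 for the hairpin with and without RANKL.

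Of the 8 genes of the spindle checkpoint, APC/C and separase, all rose with RANKL in NCsh libraries and 7 in TMBIM6sh libraries, and 7 were lower with the hairpin in each state. Ube2c, the ubiquitin-conjugating enzyme of APC/C, was at 17.1 and 16.3 RPKM in TMBIM6sh libraries with RANKL and 8.04 and 6.84 RPKM in those without, against 29 and 32.5 RPKM in NCsh libraries with RANKL and 15.7 and 17.6 RPKM in those without. RANKL raised it by 1.07 ± 0.0923 (SE, limma adjusted p = 8.81e-05) in TMBIM6sh libraries. Cdc20, the activator of APC/C in metaphase, had 7.94 and 8.35 RPKM in TMBIM6sh libraries with RANKL and 3.88 and 4.31 RPKM in those without, against 15.3 and 13.9 RPKM in NCsh libraries with RANKL and 8.82 and 9.69 RPKM in those without. The hairpin difference of Cdc20 was -1.01 ± 0.0849 (SE, limma adjusted p = 5.72e-05) without RANKL. Of the exonic bases of Cdc20, 2.84% are shared with Elovl1 on the other strand, which was at up to 59.4 RPKM. Bub1b, a checkpoint protein that restrains Cdc20, was at 3.92 and 4.74 RPKM in TMBIM6sh libraries with RANKL and 1.98 and 2.34 RPKM in those without, against 10.0 and 9.52 RPKM in NCsh libraries with RANKL and 4.74 and 4.87 RPKM in those without, and its hairpin difference with RANKL was -1.02 ± 0.103 (SE, limma adjusted p = 1.26e-04). Pttg1, securin, which keeps separase inactive, was at 3.83 and 4.23 RPKM in TMBIM6sh libraries with RANKL and 3.11 and 2.78 RPKM in those without, against 9.97 and 10.3 RPKM in NCsh libraries with RANKL and 5.57 and 8.28 RPKM in those without. The hairpin lowered Pttg1 in both states, but its RANKL difference in TMBIM6sh libraries, 0.35 ± 0.142 (SE, limma adjusted p = 0.138), did not pass. The checkpoint genes Bub1 and Mad2l1 and the separase gene Espl1, whose protein cuts cohesin, had hairpin ratios of 0.615, 0.755 and 0.601 with RANKL. Ttk, a checkpoint kinase, passed with RANKL in both hairpins and not between hairpins.

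All 4 genes of the chromosomal passenger complex, the Aurora B machine that corrects wrong attachments, passed in all 4 comparisons. Birc5, survivin, was at 14 and 13.8 RPKM in TMBIM6sh libraries with RANKL and 5.28 and 5.63 RPKM in those without, against 21.9 and 21.1 RPKM in NCsh libraries with RANKL and 10.0 and 11.1 RPKM in those without. Its RANKL difference in log2(RPKM + 1) in TMBIM6sh libraries, 1.20 ± 0.074 (SE, limma adjusted p = 1.40e-05), was the largest of the 55 genes in that comparison. By ratio of mean RPKM, Mybl2, Nusap1 and Aurkb were above Birc5 (2.63, 2.62 and 2.55 against 2.54). The TMBIM6sh libraries of Birc5 with RANKL lay above its NCsh libraries without RANKL. Aurkb, the kinase of the complex, had 6.82 and 7.53 RPKM in TMBIM6sh libraries with RANKL and 3.06 and 2.56 RPKM in those without, against 12.3 and 13.5 RPKM in NCsh libraries with RANKL and 6.32 and 5.99 RPKM in those without. Incenp, its scaffold, had the smallest RANKL ratios of the 4: it was at 23 and 22.7 RPKM in TMBIM6sh libraries with RANKL and 18 and 19.4 RPKM in those without, against 32.5 and 31.8 RPKM in NCsh libraries with RANKL and 26 and 26.8 RPKM in those without. Cdca8, borealin, had hairpin ratios of 0.738 with RANKL and 0.693 without. The Incenp differences for RANKL were 0.27 ± 0.0618 (SE, limma adjusted p = 0.0157) in TMBIM6sh and 0.27 ± 0.0618 (SE, limma adjusted p = 0.0168) in NCsh libraries.

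At the centromere and kinetochore, 6 of 7 genes rose with RANKL in each hairpin and 6 were lower with the TMBIM6 hairpin in each state. Cenpa, the histone variant that marks centromeres, was at 3.07 and 4.62 RPKM in TMBIM6sh libraries with RANKL and 2.46 and 2.95 RPKM in those without, against 10.1 and 10.7 RPKM in NCsh libraries with RANKL and 6.12 and 6.9 RPKM in those without. Its hairpin difference with RANKL, -1.26 ± 0.143 (SE, limma adjusted p = 2.60e-04), was the largest fall of the 55 genes in that comparison. Cenpa rose with RANKL in NCsh libraries by 0.60 ± 0.143 (SE, limma adjusted p = 0.0211), but its difference in TMBIM6sh libraries, 0.37 ± 0.143 (SE, limma adjusted p = 0.119), did not pass. The test of the difference between these responses gave -0.23 (95% interval -0.69 to 0.22). Spc25, a subunit of the Ndc80 complex that grips microtubules, was at 7.02 and 6.76 RPKM in TMBIM6sh libraries with RANKL and 4.99 and 4.2 RPKM in those without, against 9.6 and 9.81 RPKM in NCsh libraries with RANKL and 6.29 and 8.29 RPKM in those without. The other kinetochore genes were Ndc80, Nuf2 and Spc24 of the same complex, the motor Cenpe and the large coat protein Cenpf. Their hairpin ratios with RANKL were 0.509, 0.592, 0.69, 0.56 and 0.571, in that order. Spc24 was the one that did not pass between hairpins in either state. Spc25 was among the genes that missed the threshold for RANKL in NCsh libraries, with a difference of 0.38 ± 0.117 (SE, limma adjusted p = 0.0585).

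Of the 7 kinesins, motor proteins of the spindle and midzone, all rose with RANKL in TMBIM6sh libraries and 6 in NCsh libraries, and 6 were lower with the hairpin in each state. Kif20a, a motor of cytokinesis, was at 6.93 and 7.2 RPKM in TMBIM6sh libraries with RANKL and 4.75 and 3.84 RPKM in those without, against 14.6 and 14.3 RPKM in NCsh libraries with RANKL and 7.07 and 7.63 RPKM in those without. Of its exonic bases over all annotated transcripts, 30.1% are shared with Cdc23, an APC/C subunit on the other strand. Cdc23 was at 12.6 and 12 RPKM in NCsh libraries with RANKL, and tags in the shared bases cannot be told apart. Kif2c, which removes wrong attachments, was at 4.39 and 4.04 RPKM in TMBIM6sh libraries with RANKL and 1.99 and 1.6 RPKM in those without, against 8 and 7.63 RPKM in NCsh libraries with RANKL and 3.51 and 3.56 RPKM in those without, and RANKL raised it by 0.96 ± 0.0987 (SE, limma adjusted p = 3.74e-04) in NCsh libraries. The spindle motor Kif11, which pushes poles apart, and the midzone motors Kif23 and Kif20b had hairpin ratios of 0.548, 0.574 and 0.593 with RANKL and 0.456, 0.507 and 0.631 without. Kif4 and Kif22, both chromokinesins, missed 2 and 1 of the 4 thresholds. Of the exonic bases of Kif4, 9.14% are shared with Pdzd11, which was at up to 20.5 RPKM.

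All 4 spindle assembly genes and all 5 cytokinesis genes passed in all 4 comparisons. Tpx2, which activates Aurora A on the spindle, was at 6.32 and 7.12 RPKM in TMBIM6sh libraries with RANKL and 3.85 and 4.6 RPKM in those without, against 11.2 and 10.9 RPKM in NCsh libraries with RANKL and 6.84 and 7.27 RPKM in those without. The hairpin ratios of the microtubule-binding genes Nusap1, Hmmr and Dlgap5 were 0.592, 0.541 and 0.759 with RANKL. Prc1, which bundles midzone microtubules, was at 8.39 and 9.67 RPKM in TMBIM6sh libraries with RANKL and 4.48 and 5.31 RPKM in those without, against 16.7 and 18.8 RPKM in NCsh libraries with RANKL and 9.83 and 11.2 RPKM in those without. Its hairpin differences were -0.90 ± 0.106 (SE, limma adjusted p = 3.04e-04) with RANKL and -0.97 ± 0.106 (SE, limma adjusted p = 2.35e-04) without. Racgap1 and Ect2, which switch on RhoA at the division plane, Anln, which scaffolds the contractile ring, and Cep55, which recruits the abscission machinery, had hairpin ratios of 0.63, 0.683, 0.481 and 0.578 with RANKL. Prc1 shares 11.1% of its exonic bases with Rccd1, which was at no more than 1.57 RPKM.

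The 7 chromosome structure genes also passed in all 4 comparisons. Top2a, which untangles DNA before chromosomes part, had 21.8 and 22.4 RPKM in TMBIM6sh libraries with RANKL and 10.3 and 9.59 RPKM in those without, against 35.3 and 37.9 RPKM in NCsh libraries with RANKL and 18 and 15.8 RPKM in those without. It had the largest RANKL difference in log2(RPKM + 1) in NCsh libraries, 1.07 ± 0.0775 (SE, limma adjusted p = 7.14e-05). By ratio of mean RPKM, Mybl2, Kif2c and Ttk were above Top2a (2.25, 2.21 and 2.18 against 2.17). Mki67, the proliferation marker that coats mitotic chromosomes, had 20.4 and 19.2 RPKM in TMBIM6sh libraries with RANKL and 10.7 and 9.99 RPKM in those without, against 33.1 and 34.1 RPKM in NCsh libraries with RANKL and 21.3 and 18.4 RPKM in those without. Its 4 groups did not overlap except that TMBIM6sh with RANKL met NCsh without RANKL. The condensin subunit Ncapd2 was at 8.18 and 8.81 RPKM in TMBIM6sh libraries with RANKL and 3.95 and 3.58 RPKM in those without, against 11.9 and 12.4 RPKM in NCsh libraries with RANKL and 5.81 and 6.09 RPKM in those without, and it rose by 0.99 ± 0.0801 (SE, limma adjusted p = 6.39e-05) in TMBIM6sh libraries, while Smc4, another condensin subunit, rose by 0.36 ± 0.0689 (SE, limma adjusted p = 0.00616). The other condensin genes Smc2, Ncapg and Ncaph had hairpin ratios of 0.715, 0.54 and 0.561 with RANKL. Ncapg shares 13.4% of its exonic bases with Lcorl, which was at up to 4.54 RPKM.

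The combined states were set side by side, without a test. Against NCsh libraries without RANKL, both TMBIM6sh libraries with RANKL were higher for 20 of the 55 genes, lower for 12 and overlapping for 23, beside 33.4% of all tested genes higher and 31.8% lower. The count of higher genes is near its background and that of lower genes below it. The ratio of means had a median of 1.06, between 0.581 and 2.04. The lower genes included Ccnb2, Cdk1, Plk1, Cdc20, Pttg1 and Cenpa, and the higher ones Mybl2, Foxm1, Birc5, Top2a and Ncapd2.

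Genes with other parts in the same processes were described by lists. Of 35 tested spindle, kinesin and division genes outside the 55, 23 rose with RANKL in TMBIM6sh libraries and 29 in NCsh libraries, and 28 were lower with the hairpin with RANKL and 21 without. Among them Kpna2, a nuclear import receptor, had 28.8 and 29.2 RPKM in TMBIM6sh libraries with RANKL and 25.3 and 24.3 RPKM in those without, against 62.5 and 59.4 RPKM in NCsh libraries with RANKL and 41.7 and 47.6 RPKM in those without. Its hairpin differences were -1.04 ± 0.072 (SE, limma adjusted p = 1.82e-05) with RANKL and -0.82 ± 0.072 (SE, limma adjusted p = 6.65e-05) without. Of 28 further kinetochore and checkpoint genes, 13 and 16 rose with RANKL in TMBIM6sh and NCsh libraries, and 12 were lower with the hairpin with RANKL and 8 without. The kinetochore gene Zwint was higher with the hairpin in both states, by 0.33 ± 0.0691 (SE, limma adjusted p = 0.00665) with RANKL. Of 15 cohesin genes, 6 rose with RANKL in each hairpin, and 6 were lower with the hairpin with RANKL and 4 without. Over all tested genes 8.53% rose with RANKL in TMBIM6sh libraries and 11% in NCsh libraries, and 19.7% were lower with the hairpin with RANKL and 13.8% without.

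Regulators and core subunits of the same processes were counted in the same way. Of 17 APC/C subunits and regulators, 4 rose and 1 fell with RANKL in TMBIM6sh libraries and 5 rose in NCsh libraries, and with the hairpin 4 were lower with RANKL and 2 without, and 1 was higher in each state. These hairpin counts are near the shares over all tested genes (19.7% and 13.8% lower, 8.93% and 10.4% higher). The counts include Cdc23, called for RANKL in NCsh libraries and for the hairpin with RANKL. Cdc23 shares exonic bases with Kif20a, so some of its tags may come from Kif20a. Fbxo5 (Emi1), an APC/C inhibitor, had 4.17 and 4.66 RPKM in TMBIM6sh libraries with RANKL and 2.51 and 2.22 RPKM in those without, against 6.35 and 6.59 RPKM in NCsh libraries with RANKL and 3.25 and 3.21 RPKM in those without. It rose with RANKL in both hairpins and was lower with the TMBIM6 hairpin in both RANKL states. Cdc27, an APC/C core subunit, was higher with the hairpin, at 14.3 and 13.7 RPKM in TMBIM6sh libraries with RANKL and 13.1 and 13.5 RPKM in those without, against 8.53 and 7.86 RPKM in NCsh libraries with RANKL and 8.16 and 6.82 RPKM in those without. Of 11 DREAM and MuvB genes, 3 rose with RANKL in TMBIM6sh and 2 in NCsh libraries, and 2 were lower with the hairpin in each state, Lin9, a MuvB subunit, and Rbl1, the p107 pocket protein, while Tfdp1, an E2F partner, was higher with the hairpin in the absence of RANKL. The DREAM and MuvB hairpin counts are also near the all-gene shares, and so is the RANKL count in NCsh libraries, where 11% of all tested genes rose. Of 14 genes that restrain mitotic entry, 6 rose with RANKL in TMBIM6sh and 5 in NCsh libraries, and with the hairpin 5 were lower and 1 higher with RANKL and 3 lower and 2 higher without. For these 14 the RANKL counts stand beside 8.53% and 11% of all tested genes, and the hairpin counts of 1 to 5 genes were not tested against the all-gene shares. Wee1, which inhibits CDK1, followed the 55 genes, at 5.82 and 5.84 RPKM in TMBIM6sh libraries with RANKL and 3.79 and 3.81 RPKM in those without, against 9.21 and 9.01 RPKM in NCsh libraries with RANKL and 6.26 and 6.35 RPKM in those without. Gadd45a, a stress gene that slows the G2 to M step, was higher with the hairpin in both states: it was at 32.4 and 36.3 RPKM in TMBIM6sh libraries with RANKL and 40.7 and 41.7 RPKM in those without, against 22.9 and 24.8 RPKM in NCsh libraries with RANKL and 24.9 and 28.4 RPKM in those without. The differences were 0.51 ± 0.0831 (SE, limma adjusted p = 0.0018) with RANKL and 0.61 ± 0.0831 (SE, limma adjusted p = 7.38e-04) without.

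DNA replication genes, which act earlier in the cycle, were compared as the list nearest to the 55. Of 37, 31 rose and 1 fell with RANKL in TMBIM6sh libraries and 28 rose in NCsh libraries, with medians of 0.63 and 0.56. With the hairpin, 19 were lower with RANKL and 24 without, with medians of -0.27 and -0.37. These hairpin medians stand beside -0.65 and -0.64 for the 55 genes. No test of the 2 lists against each other was made. Over all tested genes, 8.53% rose with RANKL in TMBIM6sh libraries and 11% in NCsh libraries. With the hairpin, 19.7% of all tested genes were lower with RANKL and 13.8% without, and 8.93% and 10.4% were higher. Of 9 G1 cyclin and kinase genes, 4 rose and 1 fell with RANKL in TMBIM6sh libraries and 5 rose and 1 fell in NCsh libraries, and with the hairpin 3 were lower and 2 higher in each RANKL state, counts not tested against the all-gene shares. The one that fell was Ccnd2, a D-type cyclin, which was at 2.75 and 2.84 RPKM in TMBIM6sh libraries with RANKL and 7.23 and 7.74 RPKM in those without, against 2.92 and 2.99 RPKM in NCsh libraries with RANKL and 7.84 and 7.05 RPKM in those without.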

How the data were processed

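RNA sequencing values of 8 libraries were analysed. The authors deposited RPKM values made with HOMER analyzeRepeats (mm10), per the file header, which counted exon tags of both strands, kept 1 transcript entry per gene and divided by exon length and library tags. The column heads say FPKM. HISAT2 and DESeq2 are also named, without versions, per the submitters' processing notes. Tags were recovered from the steps of the values (100% of 3229 to 3394 values per library whole within 0.1 tags), and 83.54% to 86.38% of tags lay in genes. limma 3.58.1 in R 4.3.3 fitted log2(RPKM + 1) with 1 mean per group over 8 libraries and an intensity trend (4 residual and 5.54 prior degrees of freedom). It was run on simulated data with 1 common spread, so unequal spread between groups was not tested. Between replicates, the median absolute log2 difference was 0.0742 in TMBIM6sh without RANKL, the lowest, and 0.115 in NCsh without RANKL, the highest. The pseudocount of 1 understates changes of genes with low levels. Members and lists were chosen with earlier results of these data known. Genes shown with every library are the 6 with the smallest p and no overlap in each 2-group comparison, the 5 with the smallest p for the difference of responses, and the most abundant gene of each role; genes of other lists were taken from the 3 called with the smallest p. Cdk1, Cdc25b, Cdc25c, Mybl2, Aurka, Pttg1, Cenpa and the printed promoters were chosen after their values were seen. Exon overlap was read from GENCODE M21 on GRCm38. Its percentages are of the exonic bases of all annotated transcripts of a gene, while the RPKM values count 1 transcript entry. The shared part of the counted bases was not measured. A two-sided permutation of 2 against 2 libraries cannot go below p = 0.333. Alternatives tried were other pseudocounts, filters and scalings, voom on recovered tags, a fit on 4 libraries, leaving out each library, and a replicate block.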

Additional observations from a re-analysis of the deposited data

How the results depend on the processing

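The counts of genes called stayed within 1.5 times their main value under every alternative run, and no gene was called in the opposite direction under any of them. Leaving out 1 library at a time gave 41 to 52 of 55 genes higher with RANKL in TMBIM6sh libraries and 41 to 51 in NCsh libraries, and 43 to 51 lower with the hairpin with RANKL and 42 to 49 without. The lone library left in a group was there assumed to vary like the other groups. The other alternatives gave 44 to 52, 44 to 54, 44 to 53 and 44 to 50. They include a filter of at least 5 RPKM, under which only 48 of the 55 genes were tested. The median log2 differences of the 55 genes moved with these other alternatives. They ran from 0.71 to 0.90 for RANKL in TMBIM6sh libraries and from 0.63 to 0.80 in NCsh libraries. For the hairpin they ran from -0.75 to -0.58 with RANKL and from -0.85 to -0.63 without. With 1 library left out, the medians ran from 0.65 to 0.75 for RANKL in TMBIM6sh libraries and from 0.68 to 0.72 in NCsh libraries. The hairpin medians then ran from -0.65 to -0.64 with RANKL and from -0.70 to -0.59 without. With a replicate block the counts were 52, 51, 49 and 49, and 0 for the difference of RANKL responses. Replicate numbers share no label beyond the number: the same-number deviations correlated at -0.0651 to 0.0625. For the difference of RANKL responses 0 of the 55 genes passed under any alternative. With 2 libraries a group, the standard errors of single genes set how small a difference could pass.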
